A study of Mus musculus with 24 samples.

Results

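Fatty acids are burned in mitochondria after an acyl-CoA chain is handed to carnitine, carried across the inner membrane and shortened 2 carbons at a time. 10 genes of this route were followed through retinal organoids that had been made from embryonic stem cells of the mouse. They were chosen by the Cpt1a values of rotating culture at day 18 (D18), where Cpt1a stands out. The 10 were Cpt1a, Cpt2 and Slc25a20 of the carnitine entry, the acyl-CoA dehydrogenases Acadvl, Acadl and Acadm, the trifunctional protein genes Hadha and Hadhb, and the regulators Pdk4 and Ppara. All 10 of the 10 were among the 33846 genes of the table, and all 10 passed the low-count filter that left 16792 genes for testing.

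Carnitine palmitoyltransferase 1 at the outer membrane is the step that malonyl-CoA, the first product of fatty acid synthesis, blocks, so it is regarded as the gate of the pathway. The very-long-, long- and medium-chain acyl-CoA dehydrogenases start each round of shortening and the trifunctional protein finishes the rounds of long chains. In the eye, photoreceptors are known for burning glucose to lactate, and fatty acids have been described in mice as a further photoreceptor fuel.

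Polyadenylated RNA was sequenced from 24 libraries in 9 groups. The rotating-wall bioreactor (RWB) holds tissue suspended in slowly turning medium, and 2 libraries came from it at D18, 3 at D22 and 3 at D25. Dissected static suspension culture (SSCd) had 3 libraries each at D18, D22 and D28, while intact static suspension culture (SSCi) was sampled at D18 and D25 with 2 libraries each and at D32 with 3. All organoids were formed in medium with knockout serum replacement and Matrigel and were later given N2 supplement, taurine, 9-cis retinal and insulin-like growth factor 1. For RWB and SSCd the optic cups were cut from the organoids at D10, and fetal bovine serum, B27 without vitamin A and non-essential amino acids were added from D18. SSCi organoids stayed whole and got those additions from D26. Between SSCi D25 and SSCi D18 neither group had received them, whereas SSCi D32 against D25 or D18 sets organoids with them beside organoids without. In RWB and SSCd they began at D18, the first day sampled. Day and medium cannot be told apart where a comparison spans these additions. The protocols name 2 stem cell clones, 1 from Nrl-GFP transgenic mice and 1 called R1, without tying either to a sample, and both were wild type. The series' design text calls the repeats biological replicates.

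Total counts per library ranged from 13284632 to 21604446. The 5 retina markers (Pax6, Rax, Six3, Crx and Rcvrn) summed to between 975 and 2641 counts scaled to library size, in the usual unit CPM, in the 24 libraries. The libraries numbered 1 of RWB D22, RWB D25, SSCd D18 and SSCd D22 had 8.26% to 13.1% of their counts in mitochondrially encoded genes, against 2.46% to 5.76% in the other 20. SSCi D18 library 1 stood apart, with the 6 mesenchyme markers summing to 6280 CPM, where no other library passed 273 CPM. The 5 rod markers summed to 31.2 to 105 CPM in the D18 libraries and to 1092 to 6041 CPM at all later days. In bulk RNA, fewer cells of a type and less RNA per cell cannot be told apart. Groups of this size often did not overlap. Over all tested genes, last day over D18, the share without overlap was 48.5% in RWB, 47.8% in SSCd and 63.5% in SSCi. It was 27.7% for SSCd D22 over D18 and 57.2% for SSCi D25 over D18. RWB D25 over D22 had 20.3%, SSCd D28 over D22 27% and SSCi D32 over D25 49.4%. RWB against SSCd at D22 had 17.8%, and RWB against SSCi at D25 38.6%.

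Per kilobase of transcript, the genes differed widely in level. On a TPM-like scale (transcript counts over annotated length, scaled to a common total), Hadha had the highest median over the 24 libraries, at 117, followed by Acadvl at 78.5, Hadhb at 61.5 and Acadm at 61.1. Slc25a20 and Cpt2 lay at 23.1 and 22.8, Cpt1a at 15.8 and Acadl at 9.67. Ppara and Pdk4 had medians of 0.528 and 0.264. The order at the top depends on the length used. Averaged over the 24 libraries, Hadha read 115, Acadvl 100.2, Acadm 61.7 and Hadhb 60.9 on this scale, and with the longest annotated transcript as length Acadvl read 118, Hadha 64.6, Acadm 63.0 and Hadhb 31.2. Cpt1a had the widest span of the 8 enzyme and carrier genes, its group means in CPM spanning 5.59-fold. The span was 1.35-fold for Cpt2, whose enzyme is the partner on the inner membrane.

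Cpt1a (ENSMUSG00000024900.4; chromosome 19, 3322334 to 3385733, plus strand, GRCm38) encodes the liver form of carnitine palmitoyltransferase 1. Its 300-base RefSeq start window (GRCm38.p6, chr19:3323051-3323350, plus strand) is shown because Cpt1a carries the main pattern, and the window of Acadvl (chr11:70015379-70015678, minus strand) because both genes were higher on the last day of both static cultures. Capitals mark AGGTCA, the short element bound by PPARs and other nuclear receptors, and ACGTG, the core of the hypoxia response element, on either strand.
Cpt1a: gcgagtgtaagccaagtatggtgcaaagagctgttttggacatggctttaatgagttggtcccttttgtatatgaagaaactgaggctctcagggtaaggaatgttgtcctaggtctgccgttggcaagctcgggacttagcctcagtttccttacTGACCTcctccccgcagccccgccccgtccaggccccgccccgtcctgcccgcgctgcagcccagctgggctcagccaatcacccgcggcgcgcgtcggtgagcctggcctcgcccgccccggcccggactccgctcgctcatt
Acadvl: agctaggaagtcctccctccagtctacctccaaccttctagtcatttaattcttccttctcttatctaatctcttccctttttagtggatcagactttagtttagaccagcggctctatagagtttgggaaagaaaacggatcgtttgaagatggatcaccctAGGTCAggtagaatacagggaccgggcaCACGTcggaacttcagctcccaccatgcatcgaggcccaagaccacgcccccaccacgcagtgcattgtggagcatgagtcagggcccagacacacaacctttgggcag

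The RefSeq start of Cpt1a lies 967 bases downstream of the GENCODE start, and that of Acadvl 17 bases upstream of its own. AGGTCA was found in 3 of the 10 windows (Cpt1a, Acadm and Acadvl) and in 16.3% of the 32851 RefSeq windows of all genes. ACGTG was found only in Acadvl among the 10, and in 19.6% of all windows. The full PPAR element, AGGTCA repeated after 1 base N, and the estrogen-related receptor site TNAAGGTCA, which both contain AGGTCA, were in none of the 10 windows, and in 0.0396% and 1.28% of all windows. A match of letters is a description of these windows and no more.

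In rotating culture Cpt1a was high at D18 and low afterwards. It read 108 and 193 CPM in RWB at D18, 26.5, 33.4 and 32.1 CPM at D22, and 29.5, 33.5 and 37.3 CPM at D25. Both D18 libraries lay above all 6 later ones, an order that the choice by the D18 values favoured. The log2 fold change was -2.30 for D22 over D18 and -2.17 for D25 over D18, given without a test because the D18 values of RWB chose these genes.

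In dissected static culture the last day was the highest. Cpt1a read 29.2, 35.4 and 22.7 CPM in SSCd at D18, 32.8, 29.3 and 21.3 CPM at D22, and 116, 79.6 and 63.9 CPM at D28. The D28 libraries did not overlap either earlier day, while D18 and D22 overlapped. Cpt1a was 3.11-fold higher at D28 than at D22 (1.64 on the log2 scale, SE 0.31, edgeR adjusted p = 0.0021) and 2.98-fold higher than at D18 (1.57, SE 0.30, edgeR adjusted p = 0.00044). Both calls were made whichever 1 of the 6 libraries was left out, the log2 fold change lying between 1.37 and 1.82 against D22 and between 1.30 and 1.75 against D18.

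Intact static culture ended highest. Cpt1a read 81.7 and 29.8 CPM in SSCi at D18, 73.7 and 69.3 CPM at D25, and 172, 139 and 156 CPM at D32. All 3 D32 libraries lay above the 4 earlier ones. The D32 mean was 2.79-fold that of D18 (log2 fold change 1.48, SE 0.35, edgeR adjusted p = 0.0023). This call was made whichever 1 of the 5 libraries was left out, but the value ranged from 0.98 without SSCi D18 library 2 to 2.37 without library 1, the library rich in mesenchyme markers. Against D25 the rise was 2.18-fold (1.12, SE 0.34, edgeR adjusted p = 0.049), and leaving out any 1 of the 5 libraries ended the call, at adjusted p of up to 0.29 with the log2 fold change between 1.05 and 1.20. D25 over D18 was not called (0.36, SE 0.36, edgeR adjusted p = 0.54). Without SSCi D18 library 1, with only library 2 left at D18, it stood at 1.27. Without library 2, with only library 1 left, it stood at -0.14.

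**Figure D1:**
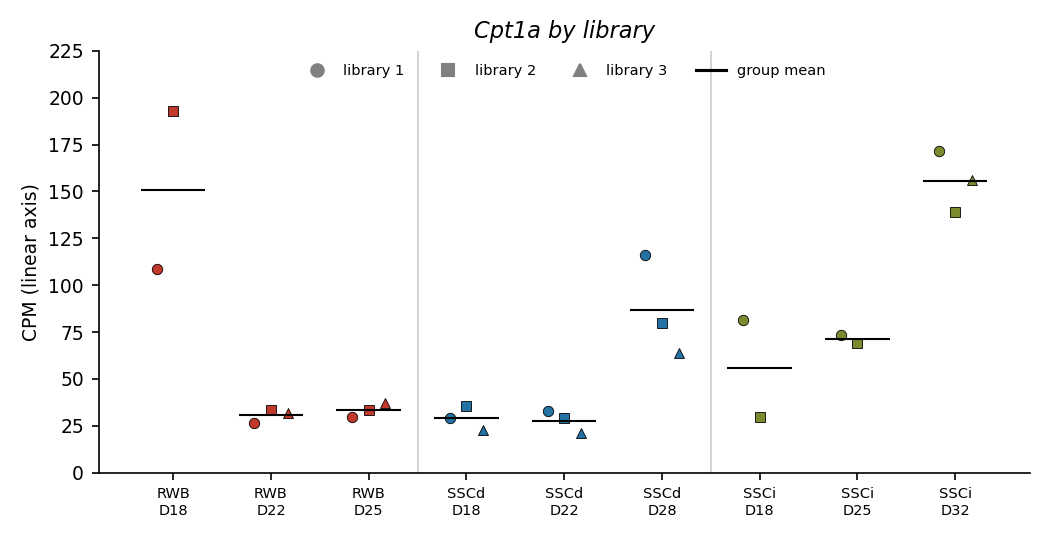
Cpt1a in CPM (linear axis) in each of the 24 libraries, by culture and day, with the library number as the marker shape and a line at each group mean. The RWB D18 libraries, at 108 and 193 CPM, and the SSCi D32 libraries, at 139 to 172 CPM, form the groups with the highest means, and the 6 later RWB libraries lie between 26.5 and 37.3 CPM.

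Between cultures on the same day, Cpt1a was lower in RWB than in SSCi at D25, and no difference from SSCd was detectable at D22. The RWB mean at D18 was 151 ± 59.5 CPM (SD, n = 2), against 29.1 ± 6.35 CPM for SSCd (SD, n = 3), a 5.17-fold difference that has no test because it was the reason for the choice. Against the 55.8 ± 36.7 CPM of SSCi D18 (SD, n = 2) the fold was 2.70, likewise untested, and both RWB libraries were above both SSCi libraries. At D18 Cpt1a in SSCd was not called against SSCi (log2 fold change -0.94, SE 0.33, edgeR adjusted p = 0.15). Without SSCi D18 library 2 the value was -1.43, a comparison with only library 1, the library rich in mesenchyme markers. At D22 it averaged 30.7 ± 3.64 CPM in RWB and 27.8 ± 5.91 CPM in SSCd (SD, n = 3 each), and the log2 fold change of 0.14 (SE 0.30) was not called (edgeR adjusted p = 0.91). At D25 it averaged 33.5 ± 3.92 CPM in RWB (SD, n = 3), against 71.5 ± 3.10 CPM in SSCi (SD, n = 2). Dissection and medium also differed here and cannot be told apart from rotation. The 2 groups did not overlap, as was so for 38.6% of all tested genes (log2 fold change -1.09, SE 0.33, edgeR adjusted p = 0.043). The call was lost without RWB library 1 or 2 or either SSCi library, at adjusted p of up to 0.19, while the value stayed between -1.18 and -1.04.

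Ordered by group mean, SSCi D32 (156 CPM) and RWB D18 (151 CPM) came first, then SSCd D28 (86.6 CPM), SSCi D25 (71.5 CPM) and SSCi D18 (55.8 CPM). RWB D25, RWB D22, SSCd D18 and SSCd D22 followed at 33.5, 30.7, 29.1 and 27.8 CPM. The ranges of every pair of neighbours in this order overlapped.

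The tested genes whose group means followed Cpt1a most closely over the 9 groups were Garem1, Phlpp1, Thada, Cdk11b, Usp31 and Ern1, with Pearson correlations of 0.91 to 0.94 on the log2 CPM scale. They were the top 6 of the 10868 genes whose log2 CPM averaged 3 or more, and over the 24 libraries their correlations were 0.60 to 0.86. Garem1, an adaptor of growth factor signalling, averaged 20.0 CPM in RWB D18, 9.89 CPM in RWB D25, 16.1 CPM in SSCd D28 and 23.97 CPM in SSCi D32. A correlation takes no account of the size of a change. Group means ran from 45.0 to 63.7 CPM for Phlpp1, 30.0 to 40.0 CPM for Thada and 75.5 to 98.0 CPM for Cdk11b. They ran from 56.5 to 98.5 CPM for Usp31 and 21.3 to 32.4 CPM for Ern1, against 27.8 to 156 CPM for Cpt1a. The 9 points share libraries with Cpt1a and its 2 highest groups weigh heavily in them.

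The sister genes were counted beside it. Cpt1b, the muscle form, and Cpt1c, the brain form, ranged over all libraries from 6.47 to 22.0 CPM and from 21.6 to 70.0 CPM. At RWB D18 Cpt1b read 15.7 and 12.4 CPM and Cpt1c 39.7 and 44.7 CPM, within the range of the later RWB days in both cases. Cpt1c passed the test only for SSCi D32 over D18, where it fell (log2 fold change -0.84, edgeR adjusted p = 0.049).

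Cpt2 (chromosome 4, 107903981 to 107923610, minus strand), which returns the chain to coenzyme A inside the mitochondrion, stayed within 17.2 to 41.7 CPM in all 24 libraries. It was called in none of the 12 tested comparisons. RWB D25 library 1, with the highest mitochondrial share, gave the highest value and library 3 of the same group, at 18.6 CPM, one of the lowest.

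Slc25a20 (chromosome 9, 108662088 to 108684641, plus strand), the carnitine-acylcarnitine carrier, was lower on the last day of SSCd than at its start. In SSCd it read 31.1, 27.6 and 23.99 CPM at D18, 32.0, 23.4 and 22.6 CPM at D22, and 21.3, 19.4 and 15.1 CPM at D28, so that D28 lay below both earlier days. The fall at D28 relative to D18 was called (log2 fold change -0.57, SE 0.19, edgeR adjusted p = 0.028), but not without SSCd D18 library 1 or 2 or D28 library 2 or 3 (adjusted p of up to 0.13, values -0.68 to -0.44). In SSCi it read 20.7, 21.4 and 20.1 CPM at D32, against 32.5 and 22.5 CPM at D18 (-0.41, edgeR adjusted p = 0.14). RWB held 33.6, 26.8 and 25.6 CPM at D25, against 39.1 and 32.0 CPM at D18 (-0.31, edgeR adjusted p = 0.30). A retained-intron transcript, Slc25a20-202, took 22.6% of its transcript counts over all libraries. That share averaged 16.1%, 18.6% and 18.6% at D18 in RWB, SSCd and SSCi. On the last day it averaged 31.8%, 30.0% and 31.5% in the same order. The libraries of these days overlapped in RWB and SSCi but not in SSCd, and the change was not tested.

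Acadvl (chromosome 11, 70010183 to 70015411, minus strand), the very-long-chain dehydrogenase, rose in all 3 cultures. It read 47.9 and 47.6 CPM in RWB at D18, 62.8, 77.5 and 71.4 CPM at D22, and 72.1, 116 and 81.9 CPM at D25. In SSCd it read 65.6, 61.2 and 77.7 CPM at D18, 130, 133 and 84.4 CPM at D22, and 268, 236 and 88.8 CPM at D28. Every later library in these cultures was above every D18 library, with library 3 the lowest of SSCd at both D22 and D28. In SSCi it read 62.7 and 67.5 CPM at D18, 65.8 and 75.4 CPM at D25, and 166, 152 and 160 CPM at D32. There the step came after D25, since D25 and D18 overlapped.

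Acadvl was higher on the last day than at D18 by 1.88-fold in RWB (log2 fold change 0.91, SE 0.32, edgeR adjusted p = 0.036), 2.90-fold in SSCd (1.54, SE 0.28, adjusted p = 0.00026) and 2.45-fold in SSCi (1.29, SE 0.32, adjusted p = 0.0035). The SSCd and SSCi calls were made whichever 1 library was left out, at 1.25 to 1.89 and 1.23 to 1.40. Leaving out all libraries numbered 1 together ended the SSCi call. The RWB call was lost without either D18 library or without D25 library 2 (values 0.69 to 1.03). It was also lost without the low-count filter, with the replicate number as a block, and without the libraries numbered 1. Between SSCi D32 and D25 the log2 fold change was 1.18 (SE 0.32, edgeR adjusted p = 0.027), a call lost without any 1 of the 5 libraries (adjusted p of up to 0.21, values 1.02 to 1.28). SSCd D28 over D22 was not called (0.78, edgeR adjusted p = 0.095), and was called without D28 library 3 (1.13, adjusted p = 0.0027), and, with the replicate number as a block, at 0.65 (adjusted p = 0.036). SSCd D22 over D18 was also not called (0.76, edgeR adjusted p = 0.084), but was without D22 library 3 (0.94, adjusted p = 0.049).

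In SSCd D28 and SSCi D32, where the Acadvl means were highest, rod markers were high too. Their sum was 5598, 4080 and 1817 CPM in SSCd D28, in the order of Acadvl in those libraries, and 6041, 4389 and 5612 CPM in SSCi D32, with all 5 markers present in every group. At SSCi D25, however, rod markers already summed to 2466 and 2652 CPM, while Acadvl lay at 65.8 and 75.4 CPM. In RWB D22 they summed to 1092 to 1762 CPM, with Acadvl at 62.8 to 77.5 CPM. In SSCd D18 they summed to 52.5 to 105 CPM, with Acadvl at 61.2 to 77.7 CPM. The part of rods in the Acadvl result was not tested. Acadvl shares 2119 bases at one end with Dvl2 on the other strand, and although the library kit was stranded, whether strand was used in counting is not given in the sources used here. Dvl2 itself averaged 33.0 ± 4.72 CPM in SSCd D28 and 44.9 ± 15.0 CPM in SSCd D18 (SD, n = 3 each), and 28.0 ± 2.14 CPM in SSCi D32 (n = 3) and 46.9 ± 14.7 CPM in SSCi D18 (n = 2).

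Acadl (chromosome 1, 66830839 to 66863277, minus strand), the long-chain dehydrogenase of the mouse, moved the opposite way. It read 20.0, 14.2 and 12.1 CPM in SSCd at D18, 8.34, 6.46 and 6.30 CPM at D22, and 7.81, 7.18 and 5.26 CPM at D28. In SSCi it read 32.1 and 15.2 CPM at D18, 8.03 and 4.81 CPM at D25, and 9.24, 7.20 and 8.01 CPM at D32. In both static cultures all later libraries lay below all D18 libraries, with no overlap. Over all tested genes, libraries did not overlap in 27.7% and 47.8% for SSCd D22 and D28 over D18. In SSCi this share was 57.2% and 63.5% for D25 and D32 over D18. The fall was called at the first later day as well as the last.

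In SSCd, Acadl fell by 1.19 at D28 relative to D18 on the log2 scale (SE 0.32, edgeR adjusted p = 0.0065), whichever 1 library was left out, and by 1.13 at D22 (SE 0.32, adjusted p = 0.023). The D22 call was lost without SSCd D18 library 1 or 2 or D22 library 2 or 3 (adjusted p of up to 0.10, values -1.28 to -0.90). In SSCi it fell by 1.88 at D25 relative to D18 (SE 0.40, edgeR adjusted p = 0.0025) and by 1.54 at D32 (SE 0.34, adjusted p = 0.0015). Without SSCi D18 library 1, the highest and the library rich in mesenchyme markers, these stood at -1.24 and -0.91 and were not called. Only library 2 is then left at SSCi D18. The part of the mesenchyme in the Acadl values was not tested. The D25 call was also lost without D25 library 2.

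At D25 Acadl was higher in RWB than in SSCi. RWB read 19.3 and 26.3 CPM at D18, 12.5, 9.48 and 13.6 CPM at D22, and 20.1, 9.41 and 17.5 CPM at D25, with D25 overlapping D18, and no RWB change over time was called. At D25 it averaged 15.7 ± 5.57 CPM in RWB (SD, n = 3), against 6.42 ± 2.28 CPM in SSCi (SD, n = 2). Dissection and medium also differed between these groups and cannot be told apart from rotation. The libraries did not overlap, as was so for 38.6% of all tested genes (log2 fold change 1.29, SE 0.37, edgeR adjusted p = 0.035). The call was lost without RWB D25 library 1 or 3 or either SSCi D25 library (adjusted p of up to 0.35, values 0.98 to 1.65). At D22 all 3 RWB libraries lay above the 8.34, 6.46 and 6.30 CPM of SSCd, but the log2 fold change of 0.75 (SE 0.32) was not called (edgeR adjusted p = 0.29). A processed pseudogene and a small nuclear RNA gene lie within Acadl.

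Acadm (chromosome 3, 153922357 to 153944632, minus strand), the medium-chain dehydrogenase, stayed between 39.1 and 76.8 CPM in all libraries and was called in no comparison. Its group means ranged from 44.5 CPM in SSCi D25 to 62.0 CPM in RWB D25, with overlapping neighbours throughout.

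**Figure D2:**
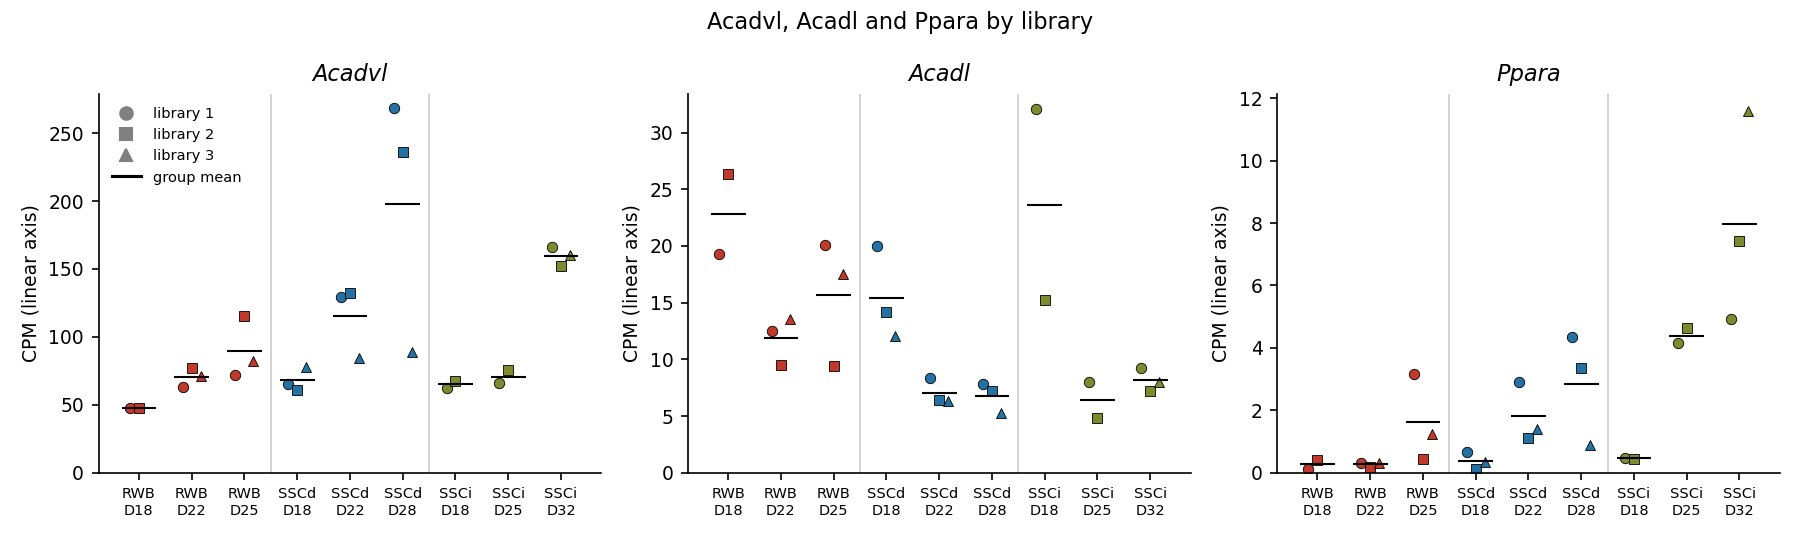
Acadvl, Acadl and Ppara in CPM (linear axes) in each of the 24 libraries, by culture and day, with a line at each group mean. Acadvl ends at 88.8 to 268 CPM in SSCd D28 and 152 to 166 CPM in SSCi D32, Acadl falls below 10 CPM in both static cultures after D18, and Ppara reaches 4.94 to 11.6 CPM in SSCi D32.

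Hadha and Hadhb, the alpha and beta subunits of the trifunctional protein, start back to back on chromosome 5. Hadha runs from 30118304 to 30155162 on the minus strand and Hadhb from 30155248 to 30184593 on the plus strand, leaving 85 bases between their GENCODE starts. The RefSeq window of Hadhb (GRCm38.p6, chr5:30155003-30155302, plus strand) is shown because it holds that shared stretch, in capitals.
Hadhb: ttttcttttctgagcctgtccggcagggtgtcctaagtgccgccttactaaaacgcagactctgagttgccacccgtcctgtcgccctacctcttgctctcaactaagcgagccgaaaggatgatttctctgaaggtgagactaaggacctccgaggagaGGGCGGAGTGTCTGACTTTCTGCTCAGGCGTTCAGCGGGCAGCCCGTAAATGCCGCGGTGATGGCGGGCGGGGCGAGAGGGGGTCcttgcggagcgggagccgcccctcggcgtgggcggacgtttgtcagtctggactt

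The pair kept to a narrow range and neither gene was called in any of the 12 comparisons. Hadha lay between 73.7 and 165 CPM and Hadhb between 35.6 and 103 CPM. Both had their 2 highest group means in RWB at D22 and D25, where Hadha averaged 137 ± 25.5 and 119 ± 19.8 CPM and Hadhb 70.7 ± 16.1 and 78.5 ± 21.5 CPM (SD, n = 3 each). Across the 9 group means their log2 CPM had the highest correlation of the 45 pairs among the 10 genes, 0.89, as a description over points that share libraries. Hadhb was closest to a call at D25, at 103, 72.0 and 61.0 CPM in RWB against 52.8 and 46.6 CPM in SSCi (log2 fold change 0.66, SE 0.26, edgeR adjusted p = 0.11). These libraries did not overlap, as was so for 38.6% of all tested genes. The transcript with the most counts for Hadha, Hadha-201, at 61.6%, is annotated as a processed transcript, ahead of the protein-coding Hadha-205 at 23.4%. Hadha shares 75 bases with Garem2 at its other end.

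Ppara (chromosome 15, 85734983 to 85802819, plus strand) encodes the nuclear receptor that binds fatty acids and switches on Cpt1a, Acadm, Acadvl and Pdk4 in mouse liver. It was scarce at D18, at 0.133 and 0.405 CPM in RWB, 0.662, 0.113 and 0.349 CPM in SSCd, and 0.469 and 0.452 CPM in SSCi, from 2 to 10 counts a library. In RWB it read 0.305, 0.185 and 0.312 CPM at D22 and 3.17, 0.436 and 1.23 CPM at D25. The 3 D25 libraries were spread over a wide range but lay above all earlier ones.

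In SSCd, Ppara read 2.90, 1.11 and 1.40 CPM at D22 and 4.34, 3.35 and 0.888 CPM at D28. In SSCi it read 4.16 and 4.62 CPM at D25 and 4.94, 7.41 and 11.6 CPM at D32. Each of these later groups lay wholly above its own D18. Over all tested genes, libraries did not overlap in 27.7% and 47.8% for SSCd D22 and D28 over D18. In SSCi this share was 57.2% and 63.5% for D25 and D32 over D18. The rise over D18 was called on the last day of each culture, with log2 fold changes of 2.53 in RWB (SE 0.87, edgeR adjusted p = 0.035), 2.95 in SSCd (SE 0.72, adjusted p = 0.0032) and 4.09 in SSCi (SE 0.84, adjusted p = 0.00072). The SSCd and SSCi calls were made whichever 1 library was left out. The RWB call was lost without either D18 library or D25 library 1 (adjusted p of up to 0.23, values 1.60 to 3.50).

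The earlier steps of Ppara were less firm. SSCi D25 over D18 gave 3.23 (SE 0.85, edgeR adjusted p = 0.011), lost without either D18 library or D25 library 2 (adjusted p of up to 0.086, values 3.17 to 3.38). SSCd D22 over D18 gave 2.28 (SE 0.72, edgeR adjusted p = 0.043), lost without SSCd D18 library 2 or 3 or D22 library 1 or 3 (adjusted p of up to 0.20, values 1.76 to 2.96). SSCi D25 preceded the serum and B27 additions to that culture. Between cultures, Ppara averaged 0.267 ± 0.0714 CPM in RWB D22 and 1.80 ± 0.964 CPM in SSCd D22 (SD, n = 3 each). These libraries did not overlap, as was so for 17.8% of all tested genes. The log2 fold change of -2.72 (SE 0.75) missed the threshold in edgeR (adjusted p = 0.068) and passed in DESeq2 (-2.75, adjusted p = 0.014). Likewise RWB D25 over D22 gave 2.54 (edgeR adjusted p = 0.054), called by DESeq2 (2.60, adjusted p = 0.013) and by edgeR without RWB D25 library 2 (3.00, adjusted p = 0.023). In RWB D25 the highest Ppara value came from library 1, which also had 13.1% mitochondrial counts and the highest pigment epithelium marker sum of all libraries, 999.6 CPM. Ttr made up 970 CPM of that sum, while Pmel and Tyr read 13.6 and 13.8 CPM there, against 101 and 43.2 CPM in SSCd D18 library 1. The part of either in the Ppara value was not tested.

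Pdk4 (chromosome 6, 5483351 to 5496309, minus strand) encodes the kinase that shuts pyruvate out of the citric acid cycle when fatty acids are burned, and is a standard PPAR target in liver and muscle. It had few counts. SSCi D18 library 1 had 11.0 CPM from 234 counts, while the other 23 libraries lay between 0.0565 and 1.60 CPM, from 1 to 21 counts. Cpt1a was high in RWB D18, with Pdk4 at 0.133 and 0.270 CPM from 6 counts in all. It was also high in SSCi D32, with Pdk4 at 0.316, 1.05 and 0.510 CPM from 27 counts. A relation between Pdk4 and Cpt1a was not tested.

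The 3 Pdk4 calls rest on SSCi D18 library 1. Pdk4 was called lower in SSCd D18 than in SSCi D18 (log2 fold change -4.47, SE 1.14, edgeR adjusted p = 0.029), in SSCi D25 than in D18 (-3.78, SE 1.27, adjusted p = 0.041) and in SSCi D32 than in D18 (-3.14, SE 1.05, adjusted p = 0.024), each with overlapping libraries. Each call also ended without at least 2 other single libraries. Without SSCi D18 library 1 the values turned to 1.95, 2.66 and 3.27 and none was called (adjusted p = 1, 0.33 and 0.10). The comparator is then the single count of SSCi D18 library 2, against which SSCd D18 had a ratio of 4.27 (exact 95% counting interval 0.620 to 184), SSCi D25 of 7.03 (1.04 to 301) and SSCi D32 of 10.9 (1.80 to 446). The mesenchyme marker Col1a2 read 1920 CPM in SSCi D18 library 1 and 5.54 CPM in library 2, and of the 3 adipocyte markers Fabp4 read 13.6 and 0.113 CPM, Plin1 0.188 and 0.226 CPM, and Adipoq 0 in both. The part of these in the Pdk4 values was not tested.

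**Figure D3:**
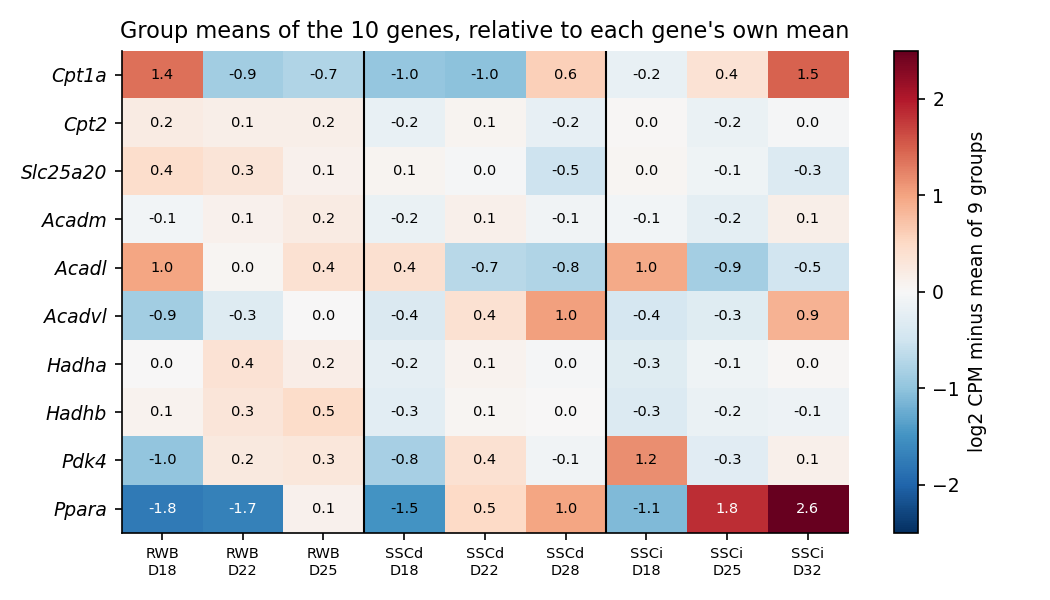
Mean log2 CPM of each of the 10 genes in each of the 9 groups minus that gene's mean over the 9 groups (colour and printed value), with cultures separated by lines. Cpt1a peaks in RWB D18 and SSCi D32, Acadl is highest in RWB D18 and SSCi D18, Ppara is highest in SSCi D32, and Cpt2, Acadm, Hadha and Hadhb stay within 0.5 of their means.

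The 10 genes were also counted together, between cultures first. For RWB over SSCd at D22, where 1.89% of all tested genes were called, 0 of 10 passed in edgeR, although 3 had an unadjusted p below 0.05 and DESeq2 called 1. For RWB over SSCi at D25, 8.68% of all genes were called and so were 2 of the 10 (Acadl higher, Cpt1a lower). For SSCd over SSCi at D18 the share of all genes was 3.86% and the 1 gene called was Pdk4. At D18 the 10 genes were not tested between RWB and the static cultures, where 0.488% of all genes were called against SSCd and 5.23% against SSCi.

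Over time in RWB, edgeR called 0 of 9 testable genes at D22 over D18, where 10.9% of all genes passed (1 at an unadjusted p under 0.05, 0 by DESeq2). It called 0 of 10 at D25 over D22, where 5.20% passed (1 at an unadjusted p under 0.05, 1 by DESeq2). At D25 over D18, 2 of 9 were called and both rose, and 28.9% of all genes passed. In SSCd, 2 of 10 were called at D22 over D18 (12.4% of all genes), 1 at D28 over D22 (8.05%) and 5 at D28 over D18 (34.6%). In SSCi, 3 of 10 were called at D25 over D18 (19.8%), 2 at D32 over D25 (8.25%) and 5 at D32 over D18 (36.7%). A count of 5 in 10 against 34.6% or 36.7% of all genes is not a result about these genes as a set. The median log2 fold change of the 10 genes was 0.25 for SSCd D28 over D18 and 0.20 for SSCi D32 over D18, beside 0.02 and -0.05 over all tested genes.

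**Figure D4:**
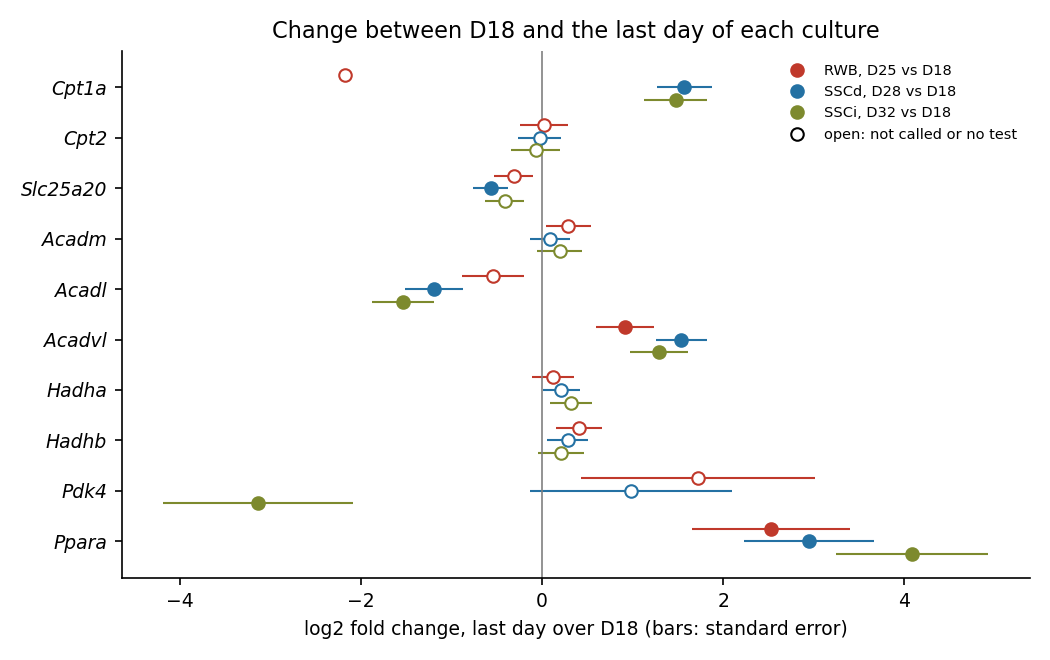
Log2 fold change of each gene on the last day of its culture over D18 (horizontal axis, bars are standard errors), with RWB above SSCd and SSCi in each row, filled where edgeR called the change. Acadvl and Ppara lie to the right in all 3 cultures, and Cpt1a lies at -2.17 in RWB, with no test and no bar, against 1.57 in SSCd and 1.48 in SSCi.

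Around the 10 genes, 97 others of fatty acid and acetyl-CoA metabolism stood on 9 lists, of which 96 were in the gene table and 90 passed the low-count filter. Of the 90, 19 rose and 13 fell in RWB at D25 over D18, where 14.9% of all genes rose and 14.0% fell. In SSCd at D28 over D18, 16 rose and 17 fell (17.5% and 17.1% of all genes), and in SSCi at D32 over D18, 14 rose and 21 fell (16.2% and 20.5%). The list genes were tested with the 24 libraries together and not with libraries left out. The counts by list below are to be read beside these shares. No list was tested as a set, so these counts are no result about a list.

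Among 12 PPAR family genes and coactivators, 5 rose and 0 fell on the last day over D18 in each culture. Over all genes, 14.9% rose in RWB, 17.5% in SSCd and 16.2% in SSCi. The 5 were the coactivators Ppargc1a and Ppargc1b, which raise mitochondrial and oxidative genes, Lpin1, Ncoa1 and the receptor Ppard. Ppargc1b rose most, with log2 fold changes of 5.21 in RWB (edgeR adjusted p = 1.7e-06), 3.89 in SSCd (adjusted p = 1.1e-06) and 4.55 in SSCi (adjusted p = 2e-06). Ppargc1a read 21.8, 21.4 and 17.3 CPM in RWB D25 and 2.12 and 2.77 CPM in RWB D18 (3.04, edgeR adjusted p = 8.1e-06). Those 2 libraries, with high Cpt1a, had the lowest Ppargc1a of the 24. The list medians were 0.66 in RWB, 0.49 in SSCd and 0.17 in SSCi.

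Among 12 tested genes of fatty acid activation and carnitine handling, the acyl-CoA synthetases Acsl1 and Acsl6 rose in all 3 cultures. Acsl1, which loads long chains onto coenzyme A, rose by 2.44 on the log2 scale in RWB (edgeR adjusted p = 6.1e-07), 2.03 in SSCd (3.3e-07) and 2.43 in SSCi (3.1e-07). In RWB 2 genes rose and 2 fell (Acsl5 at -1.42 and Crat at -0.86), in SSCd 3 rose and 1 fell, and in SSCi 4 rose and 2 fell. The list medians were 0.12, 0.04 and -0.01.

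Most calls among the other mitochondrial oxidation genes were falls. Of 13, 1 rose and 3 fell in RWB, 0 rose and 4 fell in SSCd, and 0 rose and 5 fell in SSCi. Over all genes, 14.9% rose and 14% fell in RWB, 17.5% and 17.1% in SSCd, and 16.2% and 20.5% in SSCi. Hadh, the hydroxyacyl-CoA dehydrogenase of shorter chains, fell by 0.87 in RWB (edgeR adjusted p = 0.0045), 1.11 in SSCd (adjusted p = 0.0002) and 1.54 in SSCi (adjusted p = 1.5e-05). Acads, the short-chain dehydrogenase, fell by 0.90, 1.61 and 1.88 in the same order, and Hsd17b10, a branched-chain dehydrogenase that is also part of mitochondrial RNase P, by 0.75, 1.39 and 1.30. Of 3 electron transfer genes, Etfdh fell by 0.53 in SSCd and 0.46 in SSCi, Etfa by 1.00 in SSCi, and none was called in RWB. The list of 13 had medians of -0.18, -0.56 and -0.38.

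The 11 peroxisomal genes split. The thiolase Acaa1a rose in all 3 cultures, by 1.48, 1.53 and 1.67 on the log2 scale in RWB, SSCd and SSCi (edgeR adjusted p = 1.4e-05, 1.2e-06 and 2.5e-06). The transporter Abcd2 fell in all 3, by 1.77, 1.73 and 1.44. Counts were 3 up and 3 down in RWB, 2 and 2 in SSCd, and 1 and 3 in SSCi.

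Of 10 tested PPAR targets, the lipid droplet coat Plin2 and the mitochondrial carrier Ucp2 fell in all 3 cultures while the fatty acid binding protein Fabp3 rose. Plin2 fell by 2.22 in RWB (edgeR adjusted p = 3.8e-07), 1.45 in SSCd (adjusted p = 7.9e-06) and 1.75 in SSCi (adjusted p = 2.2e-06). Ucp2 was also lower in RWB than in SSCd at D22, at 4.27, 2.15 and 3.80 CPM against 17.4, 13.3 and 10.0 CPM (log2 fold change -1.997, edgeR adjusted p = 0.0072), and lower in RWB than in SSCi at D25 (-2.39, adjusted p = 0.0016). No other gene of its list was called at D22.

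Of 12 synthesis genes, 1 rose and 3 fell in RWB, and 1 rose and 6 fell in each static culture. The desaturases Scd1 and Scd2 and the citrate carrier Slc25a1 fell in all 3 cultures, Scd1 by 1.08, 2.27 and 1.79 (edgeR adjusted p = 0.017, 1e-05 and 0.00023), and malic enzyme Me1 rose in all 3. Acaca and Acacb, which make the malonyl-CoA that blocks Cpt1a, were called in none of these. Of 12 pyruvate dehydrogenase genes, 3 rose in RWB, 2 in SSCd and 1 in SSCi and none fell, with the kinase Pdk2 among them each time (0.99, 0.90 and 0.84). Pdk1, the kinase induced by low oxygen, read 42.7, 55.3 and 64.9 CPM in RWB D22 against 246, 344 and 189 CPM in SSCd D22 (log2 fold change -2.26, edgeR adjusted p = 0.0035), the other of the 2 list genes called in that comparison. Among 5 ketone genes, the thiolase Acat1, Oxct1 and Bdh1 rose in RWB, Acat1 and Slc16a1 in SSCd, and Slc16a1, a carrier of lactate and ketones, in SSCi (0.95, edgeR adjusted p = 0.044).

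At D25, RWB over SSCi, 9 of the 90 list genes were higher and 8 lower (3.6% and 5.08% of all genes). Higher in RWB were Decr1 (1.32), Acaa2 (0.97), Mpc1 (1.79) and Ppargc1a (1.47) among others, and lower were Acads (-1.38), Plin2 (-1.54), Ucp2 (-2.39) and Scd2 (-0.93), each by edgeR with an adjusted p of at most 0.025. RWB and SSCi at D25 also differed in dissection and in medium, which cannot be told apart from rotation here.

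Other cell types known for high fatty acid oxidation were looked for. The 3 hepatocyte markers summed to at most 0.714 CPM in any library and the 5 muscle markers to at most 7.31 CPM. The 3 adipocyte markers summed to 13.8 CPM in SSCi D18 library 1, to 5.17 to 9.25 CPM in SSCi D32 and to at most 4.28 CPM elsewhere. Fabp4 alone made up 13.6 CPM of the first and 4.68 to 8.95 CPM of the SSCi D32 sums, and Plin1 and Adipoq reached at most 1.03 and 0.294 CPM in any library. The astrocyte markers Gfap and Aqp4 together reached 89.7 CPM in RWB D25 library 3 and 98.9 CPM in SSCi D32 library 2. They summed to 0.945 to 5.74 CPM at D18. Mueller glia markers (Rlbp1, Glul, Slc1a3 and Apoe) summed to 456 to 747 CPM in RWB D25 and 675 to 768 CPM in SSCi D32. At D18 these summed to 342 to 482 CPM. In RWB D18, where Cpt1a was high, mesenchyme markers summed to 13.1 and 16.8 CPM and pigment epithelium markers to 119 and 273 CPM, against 21.3 to 283 CPM in SSCd D18 and 56.6 and 46.3 CPM in SSCi D18. Both RWB D18 libraries thus lay above both SSCi D18 libraries in the pigment epithelium sum, as they did in Cpt1a, and overlapped SSCd D18. Ttr made up 75.2 and 134 CPM of the RWB D18 sums and 6.89 and 1.19 CPM of the SSCi D18 sums. Tyr kept this order, at 17.1 and 38.5 CPM against 5.86 and 9.15 CPM. So did Mlana, at 1.79 and 6.88 CPM against 0.281 and 0.904 CPM. Pmel did not, at 24.8 and 93.6 CPM against 43.5 and 35.0 CPM. Rpe65 had at most 2 counts in any of these libraries. The part of these cell types in the Cpt1a values was not tested.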

How the data were processed

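Stranded polyadenylated RNA libraries were paired-end sequenced, per the labels' protocols and design text. The authors deposited estimated counts per gene and per transcript; build GRCm38.p5, limma 3.32.2, edgeR 3.13.9 and kallisto 0.42.5 are listed, per the submitters' processing notes, without roles. How transcripts were combined into genes is not given in the sources used here. Of the 33846 genes, 33331 had a symbol, and 42.1% of the gene values were whole. A further deposited table of normalized values was not used, and 0 columns belonged to other samples.

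Gene values were rounded and fitted in edgeR 4.0.16 (R 4.3.3) with TMM scaling, a low-count filter by group (16792 genes kept), and 9 group means over all 24 libraries. The robust quasi-likelihood test was adjusted by Benjamini-Hochberg over all 16792 genes, with a threshold of 0.05. The median biological coefficient of variation was 0.256. CPM used TMM library sizes, and log2 CPM a prior count of 2. Levels per length used 105129 deposited transcripts, of which 103723 matched GENCODE M21 and held 99.3% of the counts. Start windows are RefSeq sequences. Counts were simulated for 12 comparisons (16431 to 16470 genes), each with 100 genes changed 2-fold and 100 changed 4-fold. Of these, 17% (SSCi D25 over D18) to 40% (SSCd D28 over D22) and 70% (SSCi D32 over D18) to 90% (RWB over SSCd at D22, SSCd D28 over D18) were recovered, with 2 to 7 false calls a comparison. Only 200 genes changed in each simulation, while the data gave 318 (RWB over SSCd at D22) to 6166 calls (SSCi D32 over D18). The Benjamini-Hochberg adjustment depends on how many genes change, so these shares describe the simulated setting only.

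The members and lists were chosen with earlier results of these data known. Named list genes were those among the called with the smallest p, up to 3 a list, and members of counts of 5 or fewer. A gene was left out of each of 2 lists, the peroxisomal genes and the retina markers, and is not reported here. Alternatives were RLE scaling, no filter, DESeq2 1.42.0, a replicate block, leaving out libraries numbered 1, and leaving out each library. Numbers were taken to pair libraries where 3 or more pairs all had correlations over 0.1 of their deviations from group means. That held, at 0.12 to 0.49, in 4 comparisons: RWB with SSCd at D22, RWB D25 with D22, SSCd D22 with D18 and SSCd D28 with D22. SSCd with SSCi at D18 (0.23 and 0.11) and SSCi D25 with D18 (0.17) had only 2 pairs. Several libraries numbered 1 shared a high mitochondrial share, so these correlations do not by themselves show a pairing by number. The counting interval covers counting error only.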

Additional observations from a re-analysis of the deposited data

Results flagged for a closer look

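The log2 fold changes of Cpt1a over time had opposite signs in the cultures. For RWB D25 over D18 the value was -2.17, a fall that the choice of genes by high RWB D18 values favoured. It was 1.57 for SSCd D28 over D18 and 1.48 for SSCi D32 over D18, with every last-day library above every D18 library. Libraries did not overlap in 47.8% and 63.5% of all tested genes in these 2 static comparisons. The difference between the cultures was not tested, because the RWB D18 values chose the genes, and the last days differ. Day also cannot be told apart from the serum and B27 additions, which began at D18 in RWB and SSCd and at D26 in SSCi. Groups had 2 or 3 libraries, too few to check for single outlying values.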

How the results depend on the processing

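RLE scaling changed no count of called genes among the 10. Without the low-count filter the count was 1 for RWB over SSCi at D25, 1 for RWB D25 over D18, 1 for SSCi D32 over D25 (2 each in the fit reported) and 2 for SSCi D25 over D18 (against 3). DESeq2 called 1 for RWB over SSCd at D22, 1 for RWB D25 over D22 and 2 for SSCd D28 over D22 (against 0, 0 and 1). With the replicate number as a block the count was 3 for RWB over SSCi at D25, including Hadhb (0.79, edgeR adjusted p = 0.047), 2 for SSCd D28 over D22, 4 for SSCi D32 over D18, 2 for SSCi D25 over D18, and 0 for SSCd over SSCi at D18, for RWB D25 over D18 and for SSCi D32 over D25; in the 4 paired comparisons the block changed no other call. Without the libraries numbered 1 it was 0 for RWB over SSCi at D25, SSCd over SSCi at D18, RWB D25 over D18, SSCd D22 over D18 and SSCi D25 over D18, 1 for SSCi D32 over D25 and 2 for SSCi D32 over D18. The cause of these changes was not tested, except that fewer libraries entered the last. Leaving out 1 library at a time gave 0 to 1 for RWB over SSCi at D25, 0 to 2 for SSCd over SSCi at D18, 0 to 1 for RWB D25 over D22, 0 to 2 for RWB D25 over D18, 0 to 1 for SSCd D22 over D18, 1 to 2 for SSCd D28 over D22, 4 to 5 for SSCd D28 over D18, 0 to 2 for SSCi D25 over D18, 0 for SSCi D32 over D25 and 3 to 5 for SSCi D32 over D18.

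Without the libraries numbered 1, Pdk4 turned to 1.57 for SSCd over SSCi at D18, 2.80 for SSCi D25 over D18, 3.59 for SSCi D32 over D18 and 0.0387 for SSCd D28 over D22. Leaving out 1 library, its log2 fold change ran from -5.40 to 1.95, -4.70 to 2.66, -4.07 to 3.27 and -0.97 to 0.0051 in the same order. Acadl for SSCd over SSCi at D18 ran from -1.001 to 0.0161 and Cpt1a for SSCi D25 over D18 from -0.14 to 1.27. Cpt1a for RWB over SSCd at D18 was 1.91 without RWB D18 library 2, and over SSCi at D18 was 2.33 without SSCi D18 library 1.

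Over all genes, calls for RWB over SSCd at D22 numbered 318, 659 by DESeq2 and 78 without the libraries numbered 1. For RWB over SSCi at D25 they numbered 1458, 2403 by DESeq2, 2474 with the replicate block and 657 without the libraries numbered 1. For SSCd over SSCi at D18 they numbered 649, 17 with the block and 0 without the libraries numbered 1. RWB D25 over D22 gave 873, 1405 by DESeq2 and 571 without the libraries numbered 1, SSCi D25 over D18 gave 3331 and 1183 without them, and SSCi D32 over D25 gave 1386 and 761 with the block. With the longest annotated transcript as length, the mean level of Hadha over the 24 libraries was 64.6 instead of 115 and that of Hadhb 31.2 instead of 60.9. Ppara and Pdk4 rest on few counts, which limits their precision.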
